A study of Homo sapiens with 4 samples.

Results

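The genes described here are 10 transcription factors of the mammary epithelial lineage, TP63, GRHL1, GRHL2, OVOL1, ELF3, EHF, GATA3, KLF5, SOX9 and TFAP2A, out of 60302 genes in the deposited expression table. They were taken by symbol, and each symbol matched a single row. PolyA-selected RNA was sequenced from 4 samples of HMLE, human breast epithelial cells that were immortalized and grow as a line. In the 2 hnRNPF knockdown samples the cells stably expressed a short hairpin RNA against HNRNPF from a lentiviral vector, and in the 2 control samples a non-specific hairpin, so both groups had been infected and carry a hairpin. HNRNPF encodes hnRNP F, a protein that binds runs of G in RNA and regulates splicing. The series text speaks of 2 cell lines of each kind, but neither the hairpin sequences nor a statement that replicate samples were infected separately is given. The p-values below therefore measure only the spread between these samples, and errors are SDs with n = 2 per group.

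The mammary gland is lined by an inner luminal and an outer basal epithelial layer, and each layer is set up and kept by a small circuit of transcription factors. p63 defines the basal layer and GATA3 the luminal one, while the grainyhead-like, OVOL and epithelium-specific ETS factors keep cells epithelial in both. Several of these factors repress the regulators of the epithelial-mesenchymal transition or are repressed by them. The comparison asks whether depletion of hnRNP F altered the mRNA level of these regulators in a cell line much used to study that transition.

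Values are FPKM, fragment numbers divided by gene length and by sequencing depth, so levels of different genes can be set side by side. The FPKM sums lay between 391184 and 396135 in the knockdown samples and between 392023 and 393977 in the controls. Fragment totals are not listed. If the commonest low value of FPKM times length in single-exon genes is 1 fragment, they were about 80600000 and 84700000 in the knockdown samples. In the controls they would be 77500000 and 84000000. Only 47.4% to 51.3% of low values were whole multiples of that value, so these totals are rough. HNRNPF itself stood at 18.7 and 16.6 FPKM in the knockdown samples, against 154 and 153 FPKM in the controls. Its log2 difference was -3.05 (limma, adjusted p = 0.0251). Leaving out control 1 gave an adjusted p of 0.29 and leaving out control 2 gave 0.103, at log2 differences of -3.05 and -3.06. The epithelial identity of the cells was visible in all 4 samples, with 9 of 10 mammary epithelial marker genes reaching 1 FPKM. Only KRT19 stayed below it. The summed FPKM of that list was 9831 to 11042 in the knockdown samples and 7873 to 11591 in the controls. Of other cell types, 1 of 7 fibroblast markers (COL1A1), 2 of 6 leukocyte markers (CD68 and CD14) and 0 of 4 endothelial markers reached 1 FPKM in any sample. The fibroblast list summed to 12.5 to 13.5 FPKM in the knockdown samples and 10.2 to 11.8 FPKM in the controls. The leukocyte list summed to 12.1 to 12.8 FPKM in the knockdown samples and 12.9 to 13.2 FPKM in the controls, and CD3E was at 0 throughout. The part of these lists in the results below was not tested.

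No member of the set passed the test for a difference between the knockdown and control samples. With limma on log2(FPKM + 1) across the 13110 genes whose mean reached 1 FPKM, 0 of the 10 factors had an adjusted p under 0.05, and 0.00763% of all tested genes did, which is HNRNPF alone. At an unadjusted p under 0.05 there was 1 member, GRHL1, against 6.08% of all tested genes. All 10 passed the filter on low values and exceeded 1 FPKM in every sample. The log2 difference, knockdown minus control, was above 0 for 7 members and below 0 for 3, with a median of 0.18. That median was 0.08 without control 2, 0.11 without knockdown 1 and 0.36 without knockdown 2. Over all tested genes 50.2% were above 0 and the median was 0.00. Both knockdown samples lay above both controls for 5 members (TP63, GRHL1, OVOL1, GATA3 and SOX9), against 17.5% of all tested genes. Both lay below both controls for 0 members, against 17.1% of all tested genes. These counts describe genes chosen with earlier results known, so they carry no test.

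**Figure D1:**
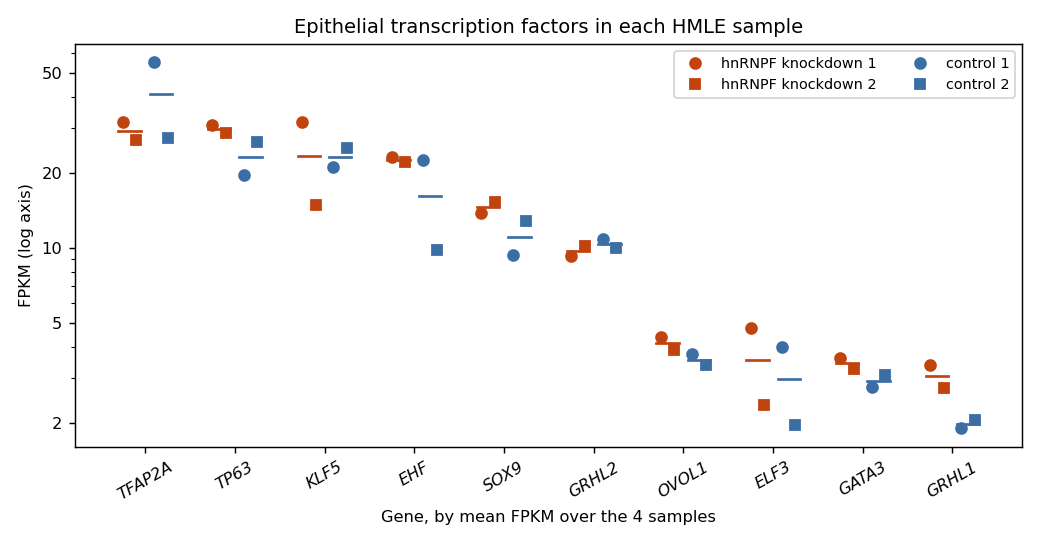
FPKM (log axis) of the 10 transcription factors, ordered along the horizontal axis by their mean over the 4 samples; symbols are single samples and short bars are group means. The 2 knockdown samples lie above both controls for TP63, GRHL1, OVOL1, GATA3 and SOX9, and a lone sample stands apart for EHF (control 2) and TFAP2A (control 1).

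The order of the levels, from the mean FPKM over the 4 samples, was TFAP2A, TP63, KLF5, EHF, SOX9, GRHL2, OVOL1, ELF3, GATA3 and GRHL1. TFAP2A, at a mean of 35.4 FPKM, was higher than 85.3% of the tested genes, and GRHL1, at a mean of 2.53 FPKM, was higher than 15.8%. Neighbours in this order overlapped in their range over the samples in every case except between GRHL2 and OVOL1. The set therefore fell into an upper group of 6 factors, with all values between 9.30 and 55.2 FPKM, and a lower group of 4, with all values between 1.89 and 4.78 FPKM. The basal regulator TP63 was in the upper group and the luminal regulator GATA3 in the lower one.

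TP63 encodes p63, the factor that specifies basal and stratified epithelium (ENSG00000073282.12, chromosome 3, 189349205 to 189615068 on the plus strand, GRCh37). It stood at 30.9 and 28.7 FPKM in the knockdown samples, against 19.5 and 26.5 FPKM in the controls. Both knockdown samples were above both controls, but control 2 lay closer to the knockdown samples than to control 1. The means were 29.8 ± 1.55 FPKM in knockdown and 23.0 ± 4.94 FPKM in the controls, a ratio of 1.29. The log2 difference of 0.37 (SE 0.17, 95% interval -0.08 to 0.82) did not pass (limma, adjusted p = 0.864). It was 0.16 without control 1 and 0.58 without control 2. The table holds a single value per gene, so the long and the N-terminally truncated p63 isoforms, which arise from different promoters, could not be told apart.

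SOX9 encodes an HMG-box factor of mammary progenitor cells (ENSG00000125398.5, chromosome 17, 70117161 to 70122561 on the plus strand, GRCh37). It was at 13.8 and 15.3 FPKM in the knockdown samples and at 9.36 and 12.8 FPKM in the controls. The groups did not overlap, with control 1 the lowest sample as for TP63. The means were 14.5 ± 1.10 FPKM in knockdown and 11.1 ± 2.45 FPKM in the controls, a ratio of 1.31. The log2 difference was 0.37 (SE 0.18, 95% interval -0.11 to 0.86; limma, adjusted p = 0.872), and 0.17 without control 1. SOX9-AS1, on the opposite strand of the same locus, was at 0.726 and 0.291 FPKM in the knockdown samples and 0.329 and 0.0635 FPKM in the controls. The libraries were stranded, but nothing states whether counting used the strand.

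The grainyhead-like genes encode factors that activate epithelial junction genes, and GRHL2 in particular opposes the mesenchymal repressor ZEB1. GRHL1 (ENSG00000134317.17, chromosome 2, 10091822 to 10142405 on the plus strand, GRCh37) had the smallest unadjusted p of the set. It was at 3.41 and 2.75 FPKM in the knockdown samples, against 1.89 and 2.05 FPKM in the controls. Every knockdown sample exceeded every control, and the gap between the groups was wider than the difference within either of them. The means were 3.08 ± 0.464 FPKM in knockdown and 1.97 ± 0.112 FPKM in the controls, a ratio of 1.56. The log2 difference of 0.45 (SE 0.16, 95% interval 0.02 to 0.89) had an unadjusted p of 0.0451 and an adjusted p of 0.817 in limma. Without any 1 sample it stayed between 0.34 and 0.57. With quantile normalization or with no filter, 0 members had an unadjusted p under 0.05 in limma. There was 1 such member with median-ratio scaling and 2 with the replicate block.

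GRHL2 (ENSG00000083307.10, chromosome 8, 102504660 to 102681954 on the plus strand, GRCh37) had the smallest SD over the 4 samples relative to its level, 0.636 FPKM at a mean of 10.1 FPKM. It was at 9.30 and 10.2 FPKM in the knockdown samples and at 10.8 and 9.95 FPKM in the controls. The groups overlapped, and all 4 samples lay within a narrow band. The log2 difference was -0.09 (SE 0.13; limma, adjusted p = 0.999). Its 95% interval of -0.42 to 0.25 was the narrowest of the 10. The third gene of the family, GRHL3, was at 3.24 and 3.69 FPKM in the knockdown samples and 2.27 and 3.37 FPKM in the controls, with overlapping groups. GRHL3 is outside the rule for naming genes and is given because it completes the family.

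OVOL1, a zinc finger repressor that holds back mesenchymal genes and promotes epidermal differentiation (ENSG00000172818.9, chromosome 11, 65554493 to 65564690 on the plus strand, GRCh37), was at 4.40 and 3.89 FPKM in the knockdown samples and 3.75 and 3.39 FPKM in the controls. The groups did not overlap, but knockdown 2 and control 1 nearly met. Between the groups the log2 difference was 0.17 (SE 0.15, 95% interval -0.23 to 0.57; limma, adjusted p = 0.961). GATA3, the zinc finger regulator of the luminal lineage (ENSG00000107485.15, chromosome 10, 8095567 to 8117161 on the plus strand, GRCh37), was at 3.62 and 3.28 FPKM in the knockdown samples and 2.78 and 3.10 FPKM in the controls. Here too the groups did not overlap, and control 2 and knockdown 2 lay close together. This made a log2 difference of 0.18 (SE 0.15, 95% interval -0.22 to 0.57; limma, adjusted p = 0.951).

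**Figure D2:**
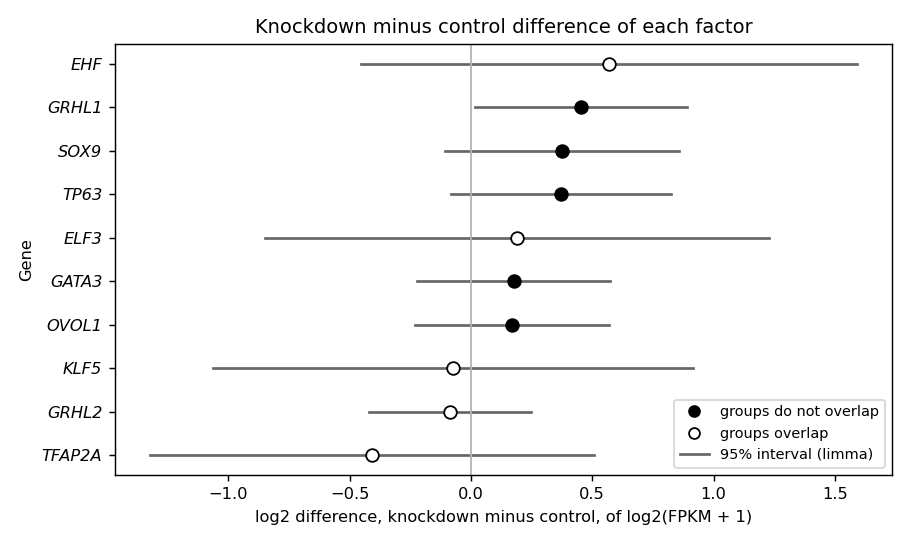
Log2 difference (knockdown minus control, of log2(FPKM + 1)) on the horizontal axis for each of the 10 factors, with 95% intervals from limma; filled points mark genes whose groups do not overlap. The interval of GRHL1 (0.02 to 0.89) is the only one that leaves out 0 before adjustment, and those of EHF, ELF3, KLF5 and TFAP2A are the widest.

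The epithelium-specific ETS factors ELF3 and EHF differed widely between samples of one group. EHF (ENSG00000135373.12, chromosome 11, 34642640 to 34682604 on the plus strand, GRCh37) was at 23.1 and 21.9 FPKM in the knockdown samples, against 22.4 and 9.76 FPKM in the controls. Control 2 was low and the other 3 samples were alike, so the groups overlapped. The means were 22.5 ± 0.824 FPKM in knockdown and 16.1 ± 8.92 FPKM in the controls. Its log2 difference of 0.57 was the largest of the set in size (SE 0.39, 95% interval -0.45 to 1.59; limma, adjusted p = 0.916). It was 0.01 without control 2 and 1.13 without control 1, so control 2 set its value. The 3 protein-coding genes whose log2 values, centred on their mean, lay closest to those of EHF over the 4 samples were PXYLP1, MTURN and RND3, at Euclidean distances of 0.0531, 0.0705 and 0.0817 among 11452 genes compared. RND3, for example, was at 14.1 and 12.8 FPKM in the knockdown samples and 12.5 and 5.36 FPKM in the controls.

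ELF3 (ENSG00000163435.15, chromosome 1, 201977073 to 201986316 on the plus strand, GRCh37) was at 4.78 and 2.35 FPKM in the knockdown samples and at 4.02 and 1.96 FPKM in the controls. Knockdown 1 and control 1 were high and knockdown 2 and control 2 low, so the samples divided by their replicate number and not by hairpin. The log2 difference was 0.19 (SE 0.39, 95% interval -0.85 to 1.23; limma, adjusted p = 0.999). It was -0.19 without control 2 and -0.20 without knockdown 1, the reverse direction. A sense-intronic row inside ELF3 on the same strand was at 0.182 and 0 FPKM in the knockdown samples and 0.0294 and 0.0329 FPKM in the controls, and summing it with ELF3 gave a log2 difference of 0.20. ELF3 was the only member with an expressed row on its own strand.

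The promoter windows of GRHL1 and ELF3, both of the lower level group, were picked because they contrast in values and in promoter letters. GRHL1 has groups that do not overlap, and ELF3 is divided by replicate number. Because the pair was picked for this contrast, a link between letters and values was not tested. Sequences are from RefSeq on GRCh38.p14 and run from 250 bases before to 50 bases after the annotated start. Capitals mark the GC box letters CCGCCC or the TATA letters TATAAA on either strand. The GRHL1 window is chr2:9951443-9951742 and the ELF3 window is chr1:202010337-202010636, both on the plus strand.
GRHL1: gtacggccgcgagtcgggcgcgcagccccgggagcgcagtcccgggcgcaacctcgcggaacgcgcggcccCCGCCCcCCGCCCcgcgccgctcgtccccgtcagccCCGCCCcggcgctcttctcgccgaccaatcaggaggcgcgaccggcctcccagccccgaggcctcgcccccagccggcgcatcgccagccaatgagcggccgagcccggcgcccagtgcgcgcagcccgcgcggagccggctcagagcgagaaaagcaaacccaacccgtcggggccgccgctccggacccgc
ELF3: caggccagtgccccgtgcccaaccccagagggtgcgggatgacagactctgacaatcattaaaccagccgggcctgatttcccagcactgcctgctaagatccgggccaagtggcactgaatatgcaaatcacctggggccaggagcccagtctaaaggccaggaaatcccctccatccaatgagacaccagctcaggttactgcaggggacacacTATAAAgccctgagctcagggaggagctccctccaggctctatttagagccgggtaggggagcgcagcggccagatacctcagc

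The GRHL1 window held 3 GC boxes and 0 TATA matches at a GC content of 79.7%, and the ELF3 window held 1 TATA match and 0 GC boxes at 59.0%. RefSeq gave 15 such windows for 7 of the 10 members, and the median GC content over all 35116 windows was 58.7%. CCGCCC was in 6 of the 15 windows and in 45.0% of all windows, and TATAAA in 5 of the 15 and in 11.5% of all windows. GATA3 had the most windows and most of those with CCGCCC, so the windows are not separate members. By gene, CCGCCC was found for GATA3, GRHL1 and KLF5 only, and TATAAA for ELF3, GATA3, KLF5, TFAP2A and TP63. The grainyhead-like letters AACCGGTT were in 0 of the 15 and in 0.134% of all windows, and the E-box CACCTG, the letters bound by ZEB and SNAI repressors, was in 1 of the 15 (that of ELF3) and in 20.6% of all windows. The TP63 window held 1 TATAAA and 0 CCGCCC, and the groups of TP63 did not overlap, like those of GRHL1. A window of GATA3, also without overlap of its groups, held both. TP63 had a single window, while the p63 isoforms arise from different promoters. The FPKM of TP63 therefore cannot be tied to that window. For KLF5, which spread widely within a group, a window held 2 CCGCCC and another held 1 TATAAA. Both strands were searched, and a match describes letters only. GRHL2, OVOL1 and SOX9 had no matching window.

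KLF5, a Krüppel-like zinc finger factor of proliferating epithelium (ENSG00000102554.13, chromosome 13, 73629114 to 73651680 on the plus strand, GRCh37), gave the largest gap within the knockdown group. It was at 32.0 and 14.8 FPKM in the knockdown samples, against 21.1 and 25.1 FPKM in the controls. Knockdown 1 was the highest sample and knockdown 2 the lowest, with both controls between them. The means of 23.4 ± 12.1 FPKM in knockdown and 23.1 ± 2.79 FPKM in the controls were nearly equal. The ratio of these means was 1.01, while the mean of log2(FPKM + 1) was slightly lower in knockdown. The log2 difference on that scale was -0.07 (SE 0.37, 95% interval -1.06 to 0.92; limma, adjusted p = 0.999). It was -0.60 without knockdown 1 and 0.46 without knockdown 2, so the equal means come from knockdown samples on opposite sides of the controls.

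TFAP2A, which encodes AP-2 alpha, a factor of ectodermal and mammary epithelium (ENSG00000137203.10, chromosome 6, 10393419 to 10419892, GRCh37, minus strand), was at 31.8 and 26.9 FPKM in the knockdown samples and at 55.2 and 27.6 FPKM in the controls. Control 1 was high and the other 3 samples were alike, so the groups overlapped. The means were 29.3 ± 3.48 FPKM in knockdown and 41.4 ± 19.5 FPKM in the controls. The log2 difference was -0.41 (SE 0.34, 95% interval -1.32 to 0.51; limma, adjusted p = 0.951), and it was 0.08 without control 1 and -0.89 without control 2. TFAP2A-AS1, on the opposite strand within the gene, was at 0.949 and 0.731 FPKM in the knockdown samples and 0.853 and 0.720 FPKM in the controls.

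The factors fell into 3 sets by their spread between samples of a group. The within-group SD of log2(FPKM + 1) was 0.54 to 0.56 for ELF3, EHF and KLF5 and 0.50 for TFAP2A. It was 0.22 for both TP63 and SOX9, and 0.08 to 0.12 for GRHL1, GRHL2, OVOL1 and GATA3. The median over all tested genes was 0.149. The first 4 lay above the 90th percentile of all tested genes, which 10% of genes do by construction. The 95% interval spanned over 1.5 on the log2 scale for these 4 members, against 12.3% of all tested genes. Knockdown 1 was the highest sample for 7 of the 10 members, against 32.9% of all tested genes. Of the remaining 3, SOX9 was highest in knockdown 2, and GRHL2 and TFAP2A in control 1.

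**Figure D3:**
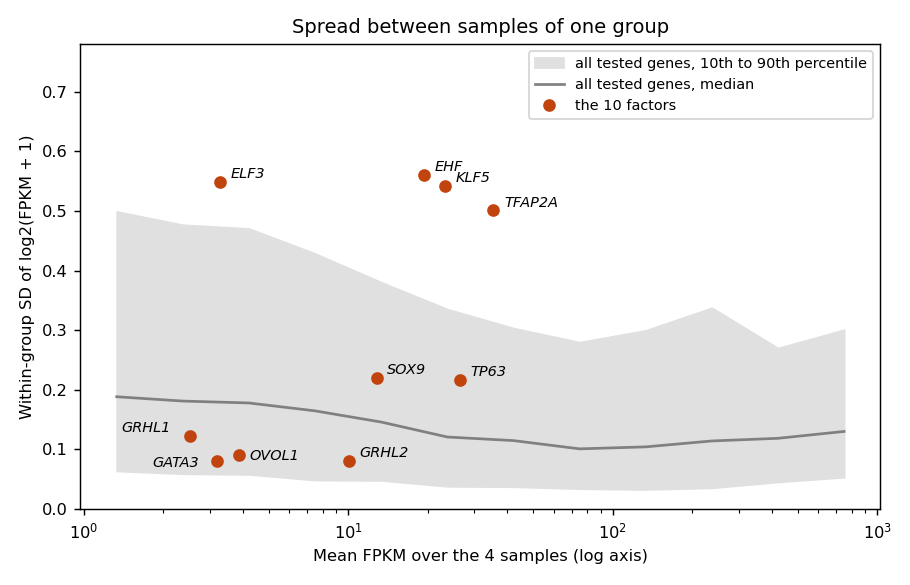
Within-group SD of log2(FPKM + 1), vertical axis, against mean FPKM over the 4 samples (log axis) for the 10 factors; the grey line and band are the median and the 10th to 90th percentile of all tested genes in bins of level. ELF3, EHF, KLF5 and TFAP2A lie above the band, and GRHL1, GRHL2, OVOL1 and GATA3 lie below the median line.

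Because hnRNP F binds runs of G, the members' transcripts were searched for them, with 1 GENCODE transcript per gene. These are spliced sequences, so introns and other transcripts of the same genes were not searched. Runs of at least 3 G were present at 9.37 per kb in TP63, the lowest, and at 19.6 per kb in ELF3, the highest. The median over 11419 tested protein-coding genes was 12.5 per kb, and 4 of the 10 members (ELF3, OVOL1, EHF and GRHL2) were above it. A G-quadruplex motif, 4 runs of at least 3 G separated by 1 to 7 bases, was found in 1 of the 10 members, against 25.5% of the genes searched. The match is in the 3′ UTR of KLF5, bases 2180 to 2203 of the transcript, printed with its G runs in capitals. A match describes the letters and not binding.
KLF5: GGGtaaGGGGtGGGGGtggaGGGG

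The relatives of the members by family gave 0 genes past the test in either direction. Of 31 listed, 17 were tested, 12 with a log2 difference above 0 and 5 below, with a median of 0.15. Both knockdown samples lay above both controls for 6 and below both for 2, against 17.5% and 17.1% of all tested genes, and 0 had an unadjusted p under 0.05 in limma. GATA6, a GATA factor of endodermal tissues, had the smallest p and was at 1.86 and 1.77 FPKM in the knockdown samples, against 1.28 and 1.31 FPKM in the controls (limma, adjusted p = 0.885). KLF4, a differentiation factor of stratified epithelium, was at 5.13 and 4.21 FPKM in the knockdown samples and 3.60 and 3.62 FPKM in the controls. The highest relative in level was SOX15, at 55.9 and 52.8 FPKM in the knockdown samples and 36.2 and 54.3 FPKM in the controls. Its groups overlapped, and control 1 was again the lowest sample.

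Of 16 luminal regulators listed, 8 fell below the filter, among them FOXA1, ESR1, PGR, ELF5, SPDEF, CITED1 and ID2, and none of these exceeded 0.496 FPKM in any sample. Of the 8 tested, 4 were above 0 and 4 below, with a median log2 difference of 0.03, and 0 passed. NOTCH3, a Notch receptor of luminal progenitors, had the smallest p. It was at 23.5 and 20.7 FPKM in the knockdown samples, against 13.2 and 15.3 FPKM in the controls. The groups did not overlap, and its log2 difference of 0.60 (SE 0.13) had an unadjusted p of 0.00783 and an adjusted p of 0.608 in limma. XBP1, a secretory regulator and the highest of the list, was at 39.0 and 33.1 FPKM in the knockdown samples and 52.6 and 38.6 FPKM in the controls. RUNX1 was at 9.11 and 8.54 FPKM in the knockdown samples and 8.57 and 6.71 FPKM in the controls.

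Of 11 basal regulators, 4 (SOX10, MYOCD, ID4 and BCL11B) were below the filter and 7 were tested, 2 with a log2 difference above 0 and 5 below, and the median was -0.03. SNAI2, the highest of them and a repressor that marks basal cells, was at 16.7 and 19.4 FPKM in the knockdown samples and 15.8 and 20.0 FPKM in the controls. SOX4 was at 7.03 and 7.29 FPKM in the knockdown samples and 5.29 and 6.47 FPKM in the controls, without overlap. SRF (10.7 and 12.5 FPKM in the knockdown samples, 12.0 and 15.0 FPKM in the controls) and NFIB (9.16 and 7.75 FPKM in the knockdown samples, 10.6 and 8.84 FPKM in the controls) overlapped. Among 5 repressors opposed to GRHL2 and OVOL, 3 (ZEB1, ZEB2 and SNAI1) were below the filter. TWIST1 was at 2.59 and 2.30 FPKM in the knockdown samples and 2.25 and 1.76 FPKM in the controls. TWIST2 was at 6.11 and 4.99 FPKM in the knockdown samples and 6.69 and 5.58 FPKM in the controls. None of the tested genes in these lists passed, and 0 had an unadjusted p under 0.05 in limma.

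Known targets of p63 and of the grainyhead-like factors also gave 0 genes past the test. Of 11 tested p63 targets, 8 were above 0 and 3 below, with a median log2 difference of 0.29, and 3 had an unadjusted p under 0.05, against 6.08% of all tested genes. Among these were the Notch ligand genes JAG1 and JAG2. JAG1 was at 36.0 and 42.2 FPKM in the knockdown samples, against 21.4 and 29.5 FPKM in the controls. JAG2 was at 15.2 and 16.1 FPKM in the knockdown samples, against 11.1 and 11.3 FPKM in the controls. In JAG1 and JAG2 the groups did not overlap, and the adjusted p-values were 0.779 and 0.683 in limma. KRT5, a basal keratin and the highest in level, was at 3676 and 3519 FPKM in the knockdown samples and 3203 and 4878 FPKM in the controls, with overlap.

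Of 10 tested grainyhead-like targets, 7 were above 0 and 3 below, with a median log2 difference of 0.07. CLDN4, which encodes a tight junction claudin, had the smallest p (limma, adjusted p = 0.683), with a log2 difference of 2.48 (SE 0.61). It was at 14.3 and 6.14 FPKM in the knockdown samples and 2.07 and 0.144 FPKM in the controls, without overlap. The log2 difference was 1.76 without control 2, 3.19 without control 1 and 3.70 with a pseudocount of 0.1 FPKM. EPCAM, a cell adhesion gene, went the other way in value, at 38.6 and 38.9 FPKM in the knockdown samples and 56.4 and 45.9 FPKM in the controls (log2 difference -0.38; limma, adjusted p = 0.805). These were the 2 of 10 targets with an unadjusted p under 0.05, against 6.08% of all tested genes. CDH1, the E-cadherin gene, was at 46.0 and 90.01 FPKM in the knockdown samples and 37.6 and 48.1 FPKM in the controls, with overlap. Its log2 difference of 0.59 (SE 0.35; limma, adjusted p = 0.913) was 0.11 without knockdown 2 and 1.06 without knockdown 1. LAD1, the highest of the list, was at 91.8 and 85.2 FPKM in the knockdown samples and 71.3 and 99.5 FPKM in the controls. In bulk samples fewer cells of a type and less RNA per cell cannot be told apart, for these genes as for the factors.

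**Figure D4:**
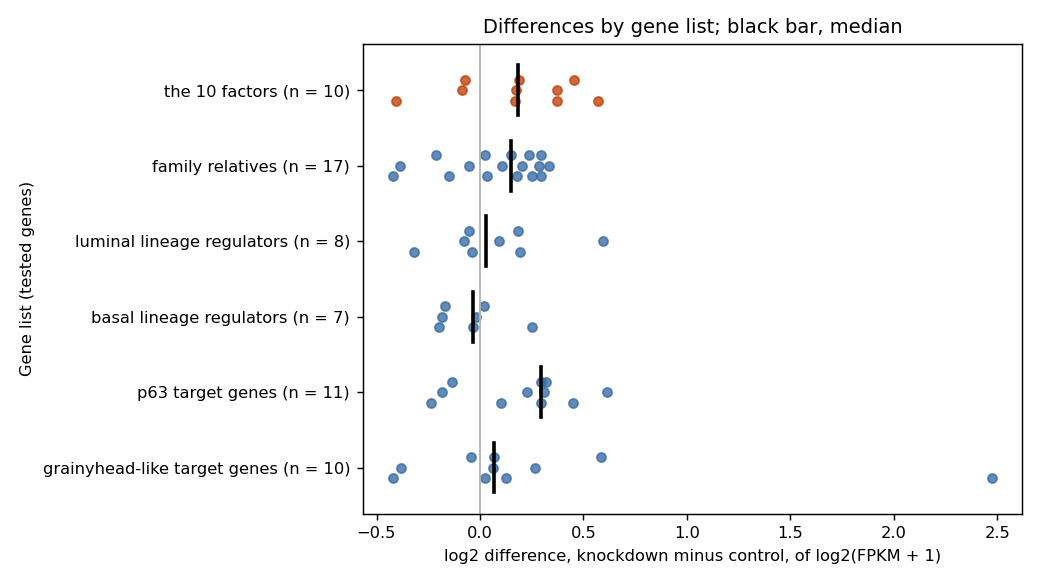
Log2 difference (knockdown minus control, of log2(FPKM + 1)) on the horizontal axis for every tested gene of 6 lists; points are genes, their vertical offsets carry no meaning, and black bars are list medians. The medians run from -0.03 for the basal regulators to 0.29 for the p63 targets, and the point at 2.48 is CLDN4.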

How the data were processed

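The deposited table gives FPKM computed by the authors, 1 column per sample per the file headers. STAR 2.5.3a, Cuffdiff 2.2.1 and the build GRCh37 stand, without roles, in the submitters' processing notes. The labels' protocols describe stranded paired-end polyA libraries. The annotation release is not given in the sources used here. FPKM can be divided between overlapping genes. Between 47.4% and 51.3% of low values of FPKM times length in single-exon genes were whole multiples, within 0.02, of the commonest 1. Whole reads could therefore not be had, and count models were not used.

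The 13110 genes averaging 1 FPKM or more were compared on log2(FPKM + 1), which understates changes of low genes, with limma 3.58.1 in R 4.3.3 (empirical Bayes with intensity trend, all 4 samples, no covariate, two-sided, Benjamini-Hochberg over all tested genes, threshold 0.05). The fit was tested on simulated data. An exact permutation test of 2 against 2 cannot go below 0.333 and was not used. Ratios are of mean FPKM.

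The members and 11 further lists were chosen with earlier results of these data known. Besides HNRNPF and the members, each list gives at most its 3 tested genes with the smallest p and its highest in level, plus the 3 genes nearest to the member with the largest difference. Some genes of the lists are not reported here. Of 9 antisense genes listed, 3 had a row (TFAP2A-AS1, SOX9-AS1 and GATA3-AS1, the last at 0 in 3 samples), and 6 were not analysed here. Opposite-strand rows outside this list, with values above 0, also overlapped OVOL1, ELF3 and GRHL2. Their highest value was 0.243 FPKM, at ELF3 in knockdown 1. GENCODE 29 gave gene types and transcripts (55692 identifiers matched) and no coordinates. Transcripts were APPRIS principal where annotated, then by support level, longest coding sequence and shortest length. Alternatives were pseudocounts, filters, scalings, settings of the empirical Bayes fit, a replicate block and leaving out each sample. Python 3.11.15, pandas 2.3.3, numpy 2.4.6 and matplotlib 3.10.9 were used.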

Additional observations from a re-analysis of the deposited data

How the results depend on the processing

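No factor passed the threshold under any of the 13 alternatives; at a filter of 5 FPKM only 6 of them were tested. HNRNPF, the only gene called over all genes, was lost (0 genes) with no filter, without the intensity trend and with the replicate block, and leaving out 1 sample gave 0 to 2 genes; its log2 difference stayed between -3.13 and -2.98 under all 13 alternatives. With the replicate block, 1790 genes had an unadjusted p under 0.05, against 797 without it, and the smallest adjusted p of a member was 0.336. Deviations of same-numbered samples correlated at 0.39 over genes, but the labels give no shared origin for a number. The factors with both knockdown samples above both controls numbered 4 with quantile normalization. With 1 sample left out, every remaining knockdown sample lay above every remaining control for 5 to 8 factors (8 without knockdown 2). Leaving out a sample cannot end a separation, so this count could not fall below 5 and is no test of the separation. The share of all tested genes is not given for these settings. The filters, the settings of the empirical Bayes fit and the replicate block leave the log2 difference as it is, so they could not turn a direction. Nor could leaving out a sample for TP63, GRHL1, OVOL1, GATA3 and SOX9, whose groups did not overlap. The direction was the same under all alternatives for 7 factors, though for EHF the log2 difference was only 0.01 without control 2. It turned when 1 sample was left out for ELF3 (-0.20 to 0.58), KLF5 (-0.60 to 0.46) and TFAP2A (-0.89 to 0.0796), and among other named genes for KRT5 (-0.44 to 0.17), LAD1 (-0.17 to 0.31) and SNAI2 (-0.15 to 0.18). The cause was not tested. The median over all genes moved by at most 0.06 (log2). With 2 samples a group, the intervals of the 10 factors were up to 2.08 wide (log2).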
